A study of Mus musculus with 7 samples.

Results

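Prostaglandins are lipids made from arachidonic acid that act on nearby cells. Phospholipase A enzymes free the arachidonic acid, the cyclooxygenases Ptgs1 and Ptgs2 turn it into an unstable intermediate, and terminal synthases convert that intermediate into prostacyclin or prostaglandins D, E or F. Each product acts on its own G protein-coupled receptors, and in the heart these receptors are known for effects on vessel tone, contraction and inflammation.

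The genes described here are 10 of the 24421 gene rows in the table, taken by name: the receptors Ptgfr, Ptger1, Ptger2, Ptger3, Ptger4 and Ptgir and the enzymes Ptgs1, Ptgs2, Ptgis and Ptgds. The family was picked because Ptgfr fell steeply in these same libraries. The Ptgfr values that made this choice are therefore given as a description with no test, and the other 9 genes entered by family.

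RNA sequencing was done on the left atria of adult mice of the CD1 strain, which is outbred. There were 4 libraries labelled FOG2 overexpression and 3 labelled WT, all from hearts of animals raised for 1 week without doxycycline, which the protocol calls DTG and NTG. The gene Zfpm2 encodes FOG2, a zinc finger protein that binds GATA transcription factors and changes their activity, and the series title links it to TBX5, GATA4 and atrial fibrillation risk. The comparison asks which atrial transcripts differ when FOG2 is overexpressed. The labels name neither the promoter that drives the extra FOG2 nor sex or litter. Whether every library came from its own animal is not stated either, and the p-values cover only the variation among these libraries, which may be technical in part. In each group 1 library differed from the rest in Y-linked and Xist transcripts, as given below, so neither group came from a single animal.

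Gene totals were 5562520 to 8655655 counts in FOG2 overexpression libraries and 7673309 to 8579443 in WT libraries, and 1 count stood for 0.111 to 0.174 CPM, the count scaled to library size. Zfpm2 had 140.1, 222, 262 and 246 CPM in FOG2 overexpression replicates 1 to 4, against 31.7, 30.9 and 29.4 CPM in WT replicates 1 to 3. FOG2 overexpression replicate 1, with the lowest Zfpm2 of its group, stood apart: it correlated with the other 3 across genes at r = 0.947 to 0.949, where those 3 correlated with each other at 0.978 to 0.983. It was also the only FOG2 overexpression library with Y-linked transcripts (545 CPM over 4 genes) and without Xist above 1 CPM, as was replicate 2 among WT libraries (557 CPM). Every marker of atrial cardiomyocytes was detected, and their summed level was 50262 to 68017 CPM in FOG2 overexpression libraries and 80974 to 93424 CPM in WT libraries.

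The starts of the genes whose values carry the results are shown for the highest receptor genes and for both cyclooxygenases, as the 250 bases before and 50 bases after the annotated start, 5′ to 3′ on the gene's own strand, from RefSeq (GRCm38.p6). The table of promoters held 8 of the 10 genes. Capitals mark GC boxes (GGGCGG, which reads CCGCCC where it lies on the opposite strand), a common feature of promoters without a TATA box. Ptgfr lies at chr3:151837479-151837778 on the minus strand, Ptger4 at chr15:5244138-5244437 on the minus strand, Ptgs2 at chr1:150099781-150100080 on the plus strand and Ptgs1 at chr2:36230176-36230475 on the plus strand.
Ptgfr: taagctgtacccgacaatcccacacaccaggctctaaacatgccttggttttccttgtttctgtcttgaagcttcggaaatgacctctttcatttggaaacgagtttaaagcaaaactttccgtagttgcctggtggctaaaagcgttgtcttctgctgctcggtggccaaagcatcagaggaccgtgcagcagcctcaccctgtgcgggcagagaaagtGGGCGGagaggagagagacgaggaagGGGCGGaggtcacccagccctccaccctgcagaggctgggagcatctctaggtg
Ptger4: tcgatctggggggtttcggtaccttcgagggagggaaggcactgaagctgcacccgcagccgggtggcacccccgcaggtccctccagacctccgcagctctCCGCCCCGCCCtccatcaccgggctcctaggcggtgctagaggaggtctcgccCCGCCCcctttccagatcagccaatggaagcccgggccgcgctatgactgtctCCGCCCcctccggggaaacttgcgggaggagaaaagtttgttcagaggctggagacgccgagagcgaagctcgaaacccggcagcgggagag
Ptgs2: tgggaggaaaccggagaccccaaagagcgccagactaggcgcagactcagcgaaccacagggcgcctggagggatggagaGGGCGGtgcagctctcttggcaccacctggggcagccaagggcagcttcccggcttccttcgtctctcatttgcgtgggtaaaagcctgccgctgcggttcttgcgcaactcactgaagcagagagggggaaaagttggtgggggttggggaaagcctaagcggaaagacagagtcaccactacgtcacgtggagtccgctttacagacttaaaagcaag
Ptgs1: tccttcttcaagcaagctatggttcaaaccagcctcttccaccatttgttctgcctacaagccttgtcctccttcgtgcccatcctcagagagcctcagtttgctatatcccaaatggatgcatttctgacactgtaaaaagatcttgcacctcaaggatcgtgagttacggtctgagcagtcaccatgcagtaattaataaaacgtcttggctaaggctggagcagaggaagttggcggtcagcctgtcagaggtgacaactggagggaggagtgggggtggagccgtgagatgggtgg

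The Ptgfr window held 2 GC boxes, the Ptger4 window 4, of which 2 share a base, the Ptgs2 window 1 and the Ptgs1 window 0, while 35.7% of 32851 promoter windows of this length held at least 1. The GATA core AGATAA, in which the first base may also be T and the last may also be G, was searched on both strands and had no match in these 4 windows, and 29.8% of all windows held one. Among the 8 members with a window, Ptger2 alone had a GATA core (TGATAA, from base 51 of the window). The T-box core AGGTGT matched in Ptgds alone (from base 85), against 13.7% of all windows, and TATAAA matched in none of the 8, against 13.6% of all windows. A match describes the letters and not a bound site, and no match says only that these letters are not in the window.

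Ptgfr, the receptor for prostaglandin F, had the highest level per kilobase of the 10 members in WT atria, and in FOG2 overexpression atria it stood below Ptgis, Ptgs1 and Ptgs2. It had 23.4, 32.6, 24.2 and 26.2 CPM in FOG2 overexpression replicates 1 to 4, against 428, 417 and 471 CPM in WT replicates 1 to 3. The groups lay far apart, and the libraries of each group sat close together, with a coefficient of variation of 15.7% in FOG2 overexpression and 6.46% in WT. The means were 26.6 ± 4.18 CPM (SD, n = 4) and 439 ± 28.3 CPM (SD, n = 3), so WT exceeded FOG2 overexpression 16.5-fold, and the log2 fold change was -4.04 ± 0.13 (SE). Of 13295 genes tested, 9 had a more negative log2 fold change.

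Ptgfr was as low in the FOG2 overexpression library with the least Zfpm2 as in the other 3. Replicate 1 held 140.1 CPM of Zfpm2 and 23.4 CPM of Ptgfr, and replicate 3 held 262 CPM of Zfpm2 and 24.2 CPM of Ptgfr. The atrial cardiomyocyte marker sum, given above, was also lower in each FOG2 overexpression library than in any WT library. Of its 8 markers, 3 were lower and 0 higher (edgeR quasi-likelihood test, adjusted p under 0.05), against 3.29% and 1.55% of all tested genes. Their median log2 fold change was -0.46, against 0.02 over all tested genes. The part of these cells in the Ptgfr difference was not tested. In whole tissue, fewer cells of a type and less RNA per cell cannot be told apart.

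**Figure D1:**
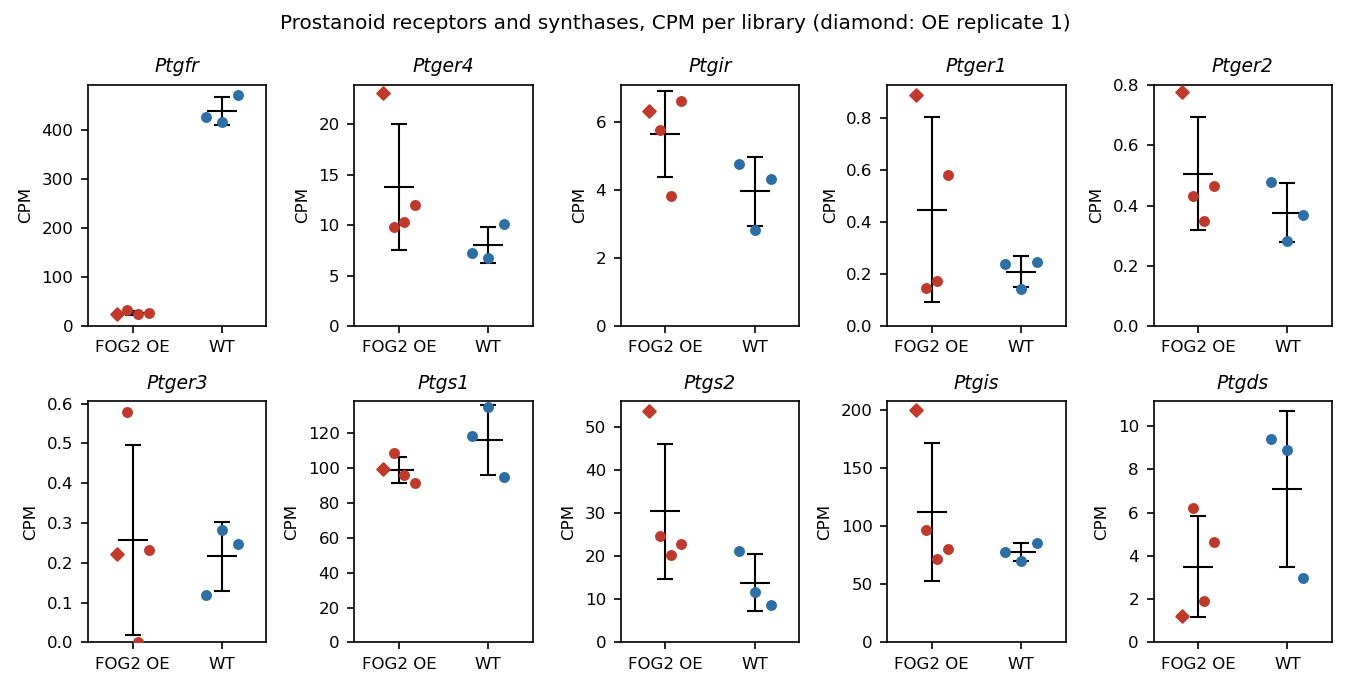
CPM (TMM-scaled, linear axes from 0, a different range in each panel) of the 10 genes in each of the 4 FOG2 overexpression libraries (red, diamond for replicate 1) and the 3 WT libraries (blue), with mean and SD in black. Ptgfr separates the groups at 23.4 to 32.6 against 417 to 471 CPM, while in the other panels the groups overlap. FOG2 overexpression replicate 1 is the highest point for Ptger4, Ptgs2 and Ptgis. It is also the highest for Ptger1 and Ptger2, at 8 and 7 counts.

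In the mm10 annotation (GENCODE M21) Ptgfr lies on the minus strand of chromosome 3 from 151796502 to 151837630, with 4 separate exon blocks. Of its 4 nearest protein-coding neighbours in the table, picked by position alone, 2 could be tested and neither passed. Dnajb4, a heat shock cochaperone, had 139 to 194 CPM in FOG2 overexpression libraries and 157 to 169 CPM in WT libraries (log2 fold change 0.10 ± 0.12, SE). Ifi44, an interferon-induced gene, had 3.55 to 14.2 CPM in FOG2 overexpression libraries and 1.72 to 12.9 CPM in WT libraries (0.75 ± 0.68). Adjusted p-values (edgeR quasi-likelihood test, adjusted over all 13295 genes by Benjamini-Hochberg) were 0.707 for Dnajb4 and 0.594 for Ifi44. The other neighbours were too low to test, Gipc2 with 14 counts in all FOG2 overexpression libraries and 26 in all WT libraries, and Ifi44l with 1 and 4.

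The 5 named genes whose log2 CPM followed that of Ptgfr most closely over the 7 libraries were Dkk3, Cdcp1, Adamts6, Lrrc2 and Krt222, with Pearson r from 0.993 for Krt222 to 0.9998 for Dkk3. The 7 libraries form 2 groups, so this likeness mostly restates a large, even gap between the groups, and it carries no test. Adamts6, a secreted metalloproteinase, had 12.9, 15.6, 12.9 and 13.4 CPM in FOG2 overexpression libraries and 33.9, 30.5 and 32.6 CPM in WT libraries. As with Ptgfr, FOG2 overexpression replicate 2 was the highest of its group for Adamts6 and for Dkk3, whose values there were 52.6, 68.3, 53.4 and 57.8 CPM in replicates 1 to 4. Krt222 was instead highest in replicate 1, at 7.89 CPM against 6.93 CPM in replicate 2. The 5 genes were picked by correlation over these same libraries, so a shared order adds nothing to the likeness.

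Among the other receptors, Ptger4, a receptor for prostaglandin E that raises cyclic AMP, and Ptgir, the prostacyclin receptor, were the next highest. Ptger4 had 23.1, 9.82, 10.3 and 11.98 CPM in FOG2 overexpression replicates 1 to 4, against 7.27, 6.78 and 10.1 CPM in WT replicates 1 to 3. Replicate 1 was the highest library, and FOG2 overexpression replicate 2 lay below WT replicate 3. The log2 fold change of 0.78 ± 0.33 (SE, 95% interval 0.05 to 1.52) did not pass the test (adjusted p = 0.233), and it was 0.41 ± 0.20 without FOG2 overexpression replicate 1 (adjusted p = 0.262). A processed pseudogene overlaps 15.3% of the Ptger4 exon bases on the opposite strand.

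Ptgir had 6.33, 5.78, 3.83 and 6.63 CPM in FOG2 overexpression replicates 1 to 4, against 4.77, 2.82 and 4.31 CPM in WT replicates 1 to 3. The groups overlapped, and the log2 fold change was 0.51 ± 0.28 (SE, 95% interval -0.12 to 1.14, adjusted p = 0.362). At a mean of 5.64 ± 1.26 CPM (SD, n = 4) in FOG2 overexpression and 3.97 ± 1.02 CPM (SD, n = 3) in WT, a difference of up to 2.20-fold lay within the interval.

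The other 3 receptors for prostaglandin E were near the limit of detection and were not tested. Ptger1, which signals through calcium, had 8, 1, 1 and 5 counts in FOG2 overexpression replicates 1 to 4, against 2, 1 and 2 counts in WT replicates 1 to 3. These few counts are uncertain, since the strand setting of the counting is not given. Ptger2, a receptor that raises cyclic AMP, had 7, 3, 2 and 4 counts in FOG2 overexpression libraries and 4, 2 and 3 in WT libraries. Ptger3, a receptor that lowers cyclic AMP, had 2, 4, 0 and 2 counts in FOG2 overexpression libraries and 1, 2 and 2 in WT libraries, and the 0 in replicate 3 allows up to 0.522 CPM by counting error alone.

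Scaled to exon length, Ptgfr made up most of the prostanoid receptor transcripts in WT atria and less than the other receptors combined in 3 of the 4 FOG2 overexpression libraries. The sum runs over 9 receptor genes, the 6 members and the receptors Ptgdr, Ptgdr2 and Tbxa2r for prostaglandin D and thromboxane. Ptgfr was 32.7%, 51.2%, 37.9% and 40.2% of the summed CPM per kilobase in FOG2 overexpression replicates 1 to 4, against 95.03%, 95.6% and 93.3% in WT replicates 1 to 3. The summed level was 9.75 ± 0.559 CPM per kilobase (SD, n = 4) in FOG2 overexpression and 68.4 ± 5.31 (SD, n = 3) in WT. Since Ptgfr was chosen for its fall, these shares are a description.

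Without Ptgfr, the other 8 receptor genes summed to 7.11, 4.58, 5.84 and 5.75 CPM per kilobase in FOG2 overexpression replicates 1 to 4, with means of 5.82 ± 1.03 (SD, n = 4) in FOG2 overexpression and 3.72 ± 1.13 (SD, n = 3) in WT. FOG2 overexpression replicate 2 lay below the highest WT library, so the groups overlapped. Of this remainder, Ptger4, Ptgir and the thromboxane receptor Tbxa2r held nearly all, with mean shares of the 9-gene sum of 20.9 ± 8.06%, 17.3 ± 3.62% and 18.3 ± 9.33% in FOG2 overexpression (SD, n = 4) and 1.76 ± 0.248%, 1.74 ± 0.420% and 1.62 ± 0.924% in WT (SD, n = 3). FOG2 overexpression replicate 3 differed from its group in that Tbxa2r held 31.8% there, while Ptger4 held 32.9% in replicate 1.

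**Figure D2:**
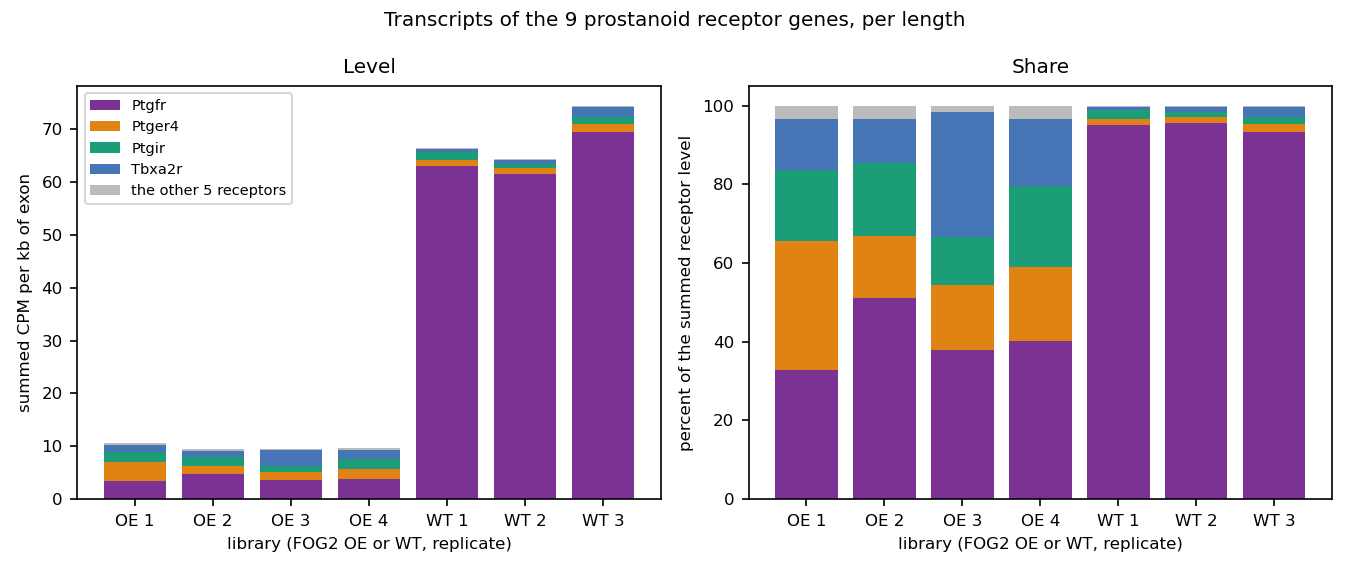
Summed CPM per kilobase of exon of 9 prostanoid receptor genes (left) and their percent shares (right) in each FOG2 overexpression (OE) and WT library, as stacked bars. Ptgfr fills 93.3% to 95.6% of the WT bars and 32.7% to 51.2% of the FOG2 overexpression bars, which are shorter by its loss.

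Of the cyclooxygenases, Ptgs1, the constitutive enzyme, was the more abundant and did not pass the test. It had 99.7, 109, 95.9 and 91.6 CPM in FOG2 overexpression replicates 1 to 4, against 118, 135 and 95.2 CPM in WT replicates 1 to 3. The groups overlapped, and the log2 fold change was -0.23 ± 0.13 (SE, 95% interval -0.52 to 0.05, adjusted p = 0.365).

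Ptgs2, the inducible cyclooxygenase of inflammation and stretch, had 53.8, 24.7, 20.4 and 22.9 CPM in FOG2 overexpression replicates 1 to 4, against 21.2, 11.7 and 8.62 CPM in WT replicates 1 to 3. Replicate 1 was more than any other library, and replicate 3 lay just under WT replicate 1, so the groups overlapped. The log2 fold change was 1.14 ± 0.43 (SE, 95% interval 0.16 to 2.12), with an adjusted p = 0.196. It was 0.71 ± 0.29 without FOG2 overexpression replicate 1 (adjusted p = 0.211). DESeq2 gave an adjusted p = 0.0496, and over the 15 alternative settings the adjusted p ranged from 0.00829 to 0.491. Its antisense transcripts Ptgs2os and Ptgs2os2 had 0 to 4 counts per library.

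Per kilobase, Ptgs2 made up 31.4%, 16.1%, 15.3% and 17.5% of the summed cyclooxygenase level in FOG2 overexpression replicates 1 to 4, against 13.2%, 6.85% and 7.13% in WT replicates 1 to 3. All 4 FOG2 overexpression shares were above the 3 WT shares, at 15.3% or more against 13.2% or less. The CPM values of Ptgs2 alone did not separate, and the share also depends on the level of Ptgs1. In CPM, 19.8% of all tested genes separated the groups. No test was run on the shares.

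The terminal synthases among the members are Ptgis, which makes prostacyclin, and Ptgds, the lipocalin-type enzyme that makes prostaglandin D. Ptgis had 200.04, 96.8, 72.0 and 80.4 CPM in FOG2 overexpression replicates 1 to 4, against 77.5, 70.1 and 84.98 CPM in WT replicates 1 to 3. FOG2 overexpression replicate 1 held more than 2 times the level of any other library, and the other 3 overlapped the WT libraries. The log2 fold change was 0.54 ± 0.34 (SE, 95% interval -0.25 to 1.32, adjusted p = 0.435), and 0.10 ± 0.12 without replicate 1 (adjusted p = 0.704).

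Ptgds had 1.22, 6.21, 1.91 and 4.65 CPM in FOG2 overexpression replicates 1 to 4, against 9.42, 8.90 and 2.96 CPM in WT replicates 1 to 3. The spread within each group was wide, the groups overlapped through WT replicate 3, and the log2 fold change of -1.01 ± 0.58 (SE, 95% interval -2.33 to 0.31) did not pass the test (adjusted p = 0.385).

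Ptger4, Ptgs2 and Ptgis peaked in FOG2 overexpression replicate 1. So did the summed markers of mesothelium and epicardium, the outer covering of the heart. The sums for smooth muscle, vascular endothelium and mast cells, given below, were highest there too. The summed level of the 6 mesothelium markers in the table, of 7 listed, was 811, 569, 430.4 and 442 CPM in FOG2 overexpression replicates 1 to 4, against 477, 421 and 480.3 CPM in WT replicates 1 to 3. Krt19 had 76.2, 30.9, 24.7 and 27.0 CPM in FOG2 overexpression libraries and 28.1, 18.2 and 23.2 CPM in WT libraries, and Upk1b had 96.7, 39.1, 28.5 and 31.9 CPM against 38.0, 25.8 and 30.8 CPM. Upk3b differed from them, with 231, 248, 198 and 200.4 CPM in FOG2 overexpression libraries and 213, 200.5 and 204 CPM in WT libraries. None of the 6 markers was at 0 in any library, 0 of 6 passed the test, against 4.84% of all tested genes. Of the 6, 0 had an unadjusted p under 0.05, against 19.2% of all tested genes, and DESeq2 called 0, against 8.58%. The part of these cells in the 3 members' values was not tested.

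The markers of fibroblasts, a cell type known to express Ptgis, summed to 15968 to 19401 CPM in FOG2 overexpression libraries and 11523 to 16364 CPM in WT libraries, with replicate 1 at 18209 CPM. That sum hides markers that differed in opposite directions in replicate 1. Col3a1, a fibrillar collagen gene, had 9520, 5133, 5636 and 3491 CPM in FOG2 overexpression replicates 1 to 4, against 2883, 2130.0 and 4589 CPM in WT replicates 1 to 3, and Col1a1, Col1a2 and Tcf21 were also highest in replicate 1 of the FOG2 overexpression libraries. Gsn, which encodes the actin-binding protein gelsolin, had 2179, 6344, 5586 and 6306 CPM in FOG2 overexpression libraries, against 4245, 4595 and 6014 CPM in WT libraries, and Dcn, Pdgfra and Lum were also lowest in replicate 1 of the FOG2 overexpression libraries. Of the 9 fibroblast markers, 0 passed the test, against 4.84% of all tested genes, and 5 had an unadjusted p under 0.05, against 19.2%. Smooth muscle and pericyte markers summed to 1258 to 1767 CPM in FOG2 overexpression libraries and 482 to 587 CPM in WT libraries, with 3 of 10 higher and 0 lower, against 1.55% and 3.29% of all tested genes, and replicate 1 was the highest. Macrophage markers summed to 454 to 594 CPM in FOG2 overexpression libraries and 379 to 522 CPM in WT libraries. The parts of these cells in the values of Ptgis, Ptgs2 and Ptger4 were not tested.

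**Figure D3:**
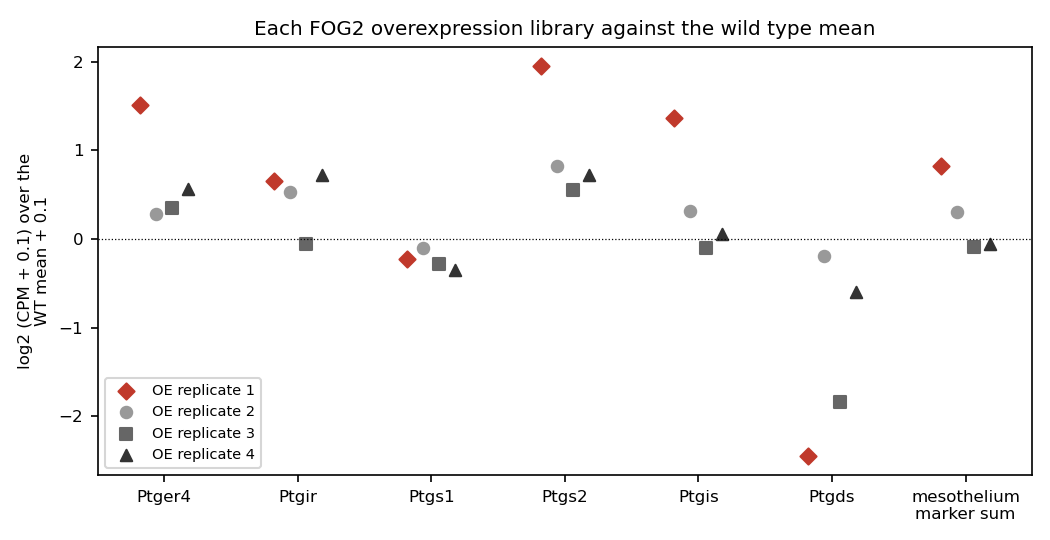
Log2 ratio of each FOG2 overexpression library's CPM (plus 0.1) to the WT mean (plus 0.1), for 6 members and for the summed mesothelium markers, with a dotted line at no difference. Replicate 1 (red diamonds) is the highest library for Ptger4 at 1.51, Ptgs2 at 1.95, Ptgis at 1.37 and the mesothelium sum at 0.82, and the lowest for Ptgds at -2.44.

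Over the family, 7 of the 10 genes passed the filter on low counts, and Ptgfr alone was called, against 4.84% of all 13295 genes called in either direction, 3.29% called lower and 1.55% called higher. Nothing is read from that count, since Ptgfr was chosen from this comparison. Of the 6 other members that passed the filter, 0 were called, 2 had an unadjusted p under 0.05 (Ptgs2 and Ptger4), against 19.2% of all tested genes. DESeq2 called 1 (Ptgs2), against 8.58%, and limma-voom called 0, against 4.66%. Ptgfr was also the only one of the 7 whose groups did not overlap in CPM, against 19.8% of all tested genes. The median log2 fold change of those 6 was 0.52, against 0.02 over all tested genes, and it was 0.26 without FOG2 overexpression replicate 1.

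Ordered by CPM per kilobase of exon, the WT levels ran from Ptgfr at 64.7 ± 4.18 through Ptgis at 30.2 ± 2.91 and Ptgs1 at 29.9 ± 5.17, which did not differ beyond their spread, to Ptgds at 4.30 ± 2.18 and Ptgs2 at 3.03 ± 1.43, which also did not, and Ptger4 at 1.21 ± 0.269 and Ptgir at 1.19 ± 0.305 (SD, n = 3). In FOG2 overexpression atria the order was Ptgis at 43.7 ± 23.1, Ptgs1 at 25.5 ± 1.88, Ptgs2 at 6.64 ± 3.42, Ptgfr at 3.93 ± 0.617, Ptgds at 2.12 ± 1.42, Ptger4 at 2.07 ± 0.944 and Ptgir at 1.69 ± 0.378 (SD, n = 4). There the mean ± SD ranges of Ptgis and Ptgs1 overlapped, as did those of Ptgs2 with Ptgfr, Ptgfr with Ptgds, and the last 3 genes. Within each FOG2 overexpression library, however, Ptgis exceeded Ptgs1, Ptgs2 exceeded Ptgfr and Ptgfr exceeded Ptgds per kilobase. Ptger1, Ptger2 and Ptger3 stayed under 0.1 CPM per kilobase on average in both groups.

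Among 22 other genes of prostaglandin supply, synthesis, transport, breakdown and reception, 18 were tested, 2 fell and 0 rose, against 3.29% and 1.55% of all tested genes. Of the 18, 7 had an unadjusted p under 0.05 (edgeR quasi-likelihood test), against 19.2% of all tested genes. The median log2 fold change of the 18 was 0.08, against 0.02 over all tested genes. Upstream of the members, Pla2g5, a secreted phospholipase A that frees fatty acids, fell to 7.66, 5.20, 15.7 and 7.33 CPM in FOG2 overexpression replicates 1 to 4, against 31.96, 23.4 and 28.5 CPM in WT replicates 1 to 3. The groups did not overlap, as for 19.8% of all tested genes, and the log2 fold change was -1.67 ± 0.32 (SE, edgeR quasi-likelihood test, adjusted p = 0.0214). That call was lost without FOG2 overexpression replicate 4 (adjusted p = 0.0529), WT replicate 1 (0.0969), WT replicate 2 (0.0648) or WT replicate 3 (0.0721), and with the 5 libraries that carry Xist alone (0.0727). The cytosolic phospholipase Pla2g4a, which supplies most arachidonic acid to cyclooxygenases, had a log2 fold change of 0.25 ± 0.23 (adjusted p = 0.599), and Pla2g6 of -0.42 ± 0.17 (adjusted p = 0.214).

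Downstream, Ptgr2, a reductase that inactivates prostaglandin metabolites, fell to 184, 190.0, 187 and 199 CPM in FOG2 overexpression replicates 1 to 4, against 283, 259 and 281 CPM in WT replicates 1 to 3. The libraries of each group were close, and the log2 fold change was -0.53 ± 0.09 (SE, adjusted p = 0.00875, or 0.0581 without WT replicate 1). Hpgd, the dehydrogenase that starts prostaglandin breakdown, had 64.0 ± 6.81 CPM (SD, n = 4) in FOG2 overexpression and 50.5 ± 4.92 CPM (SD, n = 3) in WT (0.34 ± 0.12, adjusted p = 0.145). Ptgr1, a second reductase, stood at 0.40 ± 0.18 (adjusted p = 0.257), and the uptake carrier Slco2a1 and the exporter Abcc4 at 0.19 ± 0.24 and 0.04 ± 0.11 (adjusted p = 0.713 and 0.862).

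The other terminal synthases did not pass the test. Hpgds, the haematopoietic prostaglandin D synthase, had 9.77, 9.10, 8.35 and 10.6 CPM in FOG2 overexpression libraries, against 6.32, 6.21 and 6.90 CPM in WT libraries. Its groups did not overlap, as for 19.8% of all tested genes, and its log2 fold change was 0.55 ± 0.17 (SE, adjusted p = 0.104). The prostaglandin E synthases Ptges, Ptges2 and Ptges3 had log2 fold changes of -0.04 ± 0.34, -0.29 ± 0.14 and 0.00355 ± 0.11 (adjusted p = 0.959, 0.299 and 0.991), and the thromboxane synthase Tbxas1 of 0.15 ± 0.23 (adjusted p = 0.766). Per kilobase, Ptgis held 59.97 ± 9.17% of the summed level of these 7 terminal synthases in FOG2 overexpression (SD, n = 4) and 50.8 ± 4.24% in WT (SD, n = 3). Its share was 73.5% in replicate 1 and 53.7% to 57.9% in the other FOG2 overexpression libraries, which overlapped WT at 47.3% to 55.5%. Ptges3 followed with 24.4 ± 4.72% and 27.3 ± 1.06%. The sum left out the prostaglandin F synthase Fam213b, whose mean level per kilobase (17.5 and 16.3 CPM) was near that of Ptges3 (16.3 in both groups).

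The enzymes and the binding partner tied to prostaglandin F itself did not pass the test or were too low for it. Fam213b, also named Prxl2b, a prostaglandin F synthase, had a log2 fold change of 0.11 ± 0.14 (adjusted p = 0.702), and the carbonyl reductase Cbr1, which can make prostaglandin F from prostaglandin E, of -0.43 ± 0.13 (adjusted p = 0.1005). Akr1b3, an aldo-keto reductase, was listed at 0 in 6 of the 7 libraries and at 1 count in WT replicate 1. Reads that align to several places were counted apart, so a gene with close copies can be undercounted. Ptgfrn, whose protein is known to reduce binding to the prostaglandin F receptor, had 249, 199, 273 and 231 CPM in FOG2 overexpression libraries, against 207, 194 and 239 CPM in WT libraries (0.16 ± 0.13, adjusted p = 0.536).

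**Figure D4:**
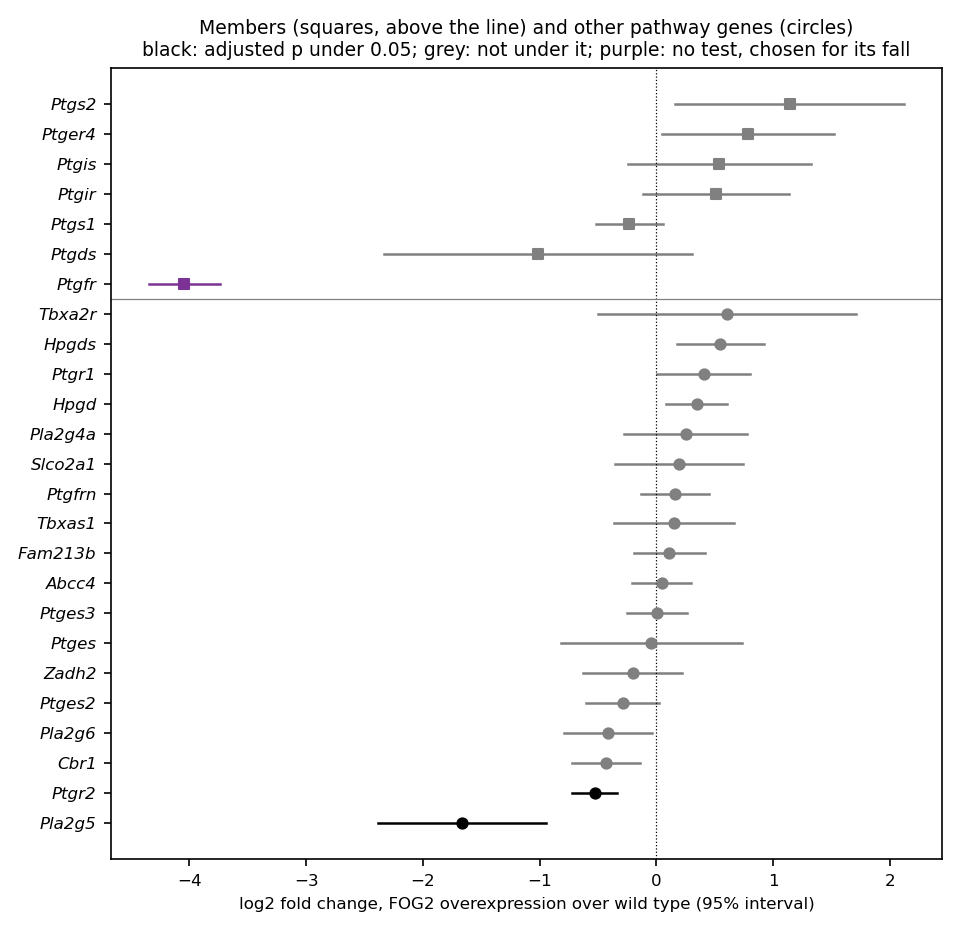
Log2 fold changes (FOG2 overexpression over WT) with 95% intervals for the 7 tested members (squares) above 18 other prostanoid pathway genes (circles), black where the adjusted p was under 0.05 and grey where it was not. Ptgfr, drawn in purple without a test, lies at -4.04, and the next lowest bound of an interval is -2.38, with Pla2g5 at -1.67 and Ptgr2 at -0.53 the 2 in black.

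The prostaglandin F receptor signals through Gq proteins, phospholipase C and protein kinase C. Of 13 genes of that route, 1 rose and 0 fell, against 1.55% and 3.29% of all tested genes, and the median log2 fold change was 0.11, against 0.02. A single call among 13 genes is near that background. Prkcd, a protein kinase C isoform, rose to 39.98, 42.7, 36.0 and 36.8 CPM in FOG2 overexpression replicates 1 to 4, against 24.9, 22.3 and 31.3 CPM in WT replicates 1 to 3 (log2 fold change 0.57 ± 0.14, SE, adjusted p = 0.04798). Its call was lost without FOG2 overexpression replicate 2, 3 or 4 (adjusted p = 0.108, 0.0805 and 0.0874) and without WT replicate 1 or 2 (0.187 and 0.204), and with the 5 libraries that carry Xist alone (0.112). The G protein genes Gnaq and Gna11 had log2 fold changes of 0.03 ± 0.09 and 0.11 ± 0.10, and Plcb4, the most abundant of the 4 phospholipase C genes per kilobase, of -0.03 ± 0.16.

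On the leukotriene and lipoxygenase side of arachidonic acid metabolism, 0 of 8 tested genes of 12 were called, against 4.84% of all tested genes, and 3 had an unadjusted p under 0.05, against 19.2%. DESeq2 and limma-voom each called 1 of the 8, against 8.58% and 4.66% of all tested genes. That gene was Cysltr1, a receptor for cysteinyl leukotrienes, with 17.5, 10.4, 6.09 and 7.80 CPM in FOG2 overexpression replicates 1 to 4, against 26.4, 21.2 and 28.6 CPM in WT replicates 1 to 3. Its groups did not overlap, as for 19.8% of all tested genes, with FOG2 overexpression replicate 1 nearest to WT. The log2 fold change was -1.26 ± 0.31 (SE, adjusted p = 0.0589), and -1.64 ± 0.20 without FOG2 overexpression replicate 1 (adjusted p = 5.35e-04).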

How the data were processed

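The deposited table holds whole-number read counts per gene for 7 libraries. The submitters' processing notes list mm10 as the build and name STAR, DESeq2 and HTSeq 0.6.0. No roles are stated, and the strand setting is not given in the sources used here. The labels call the libraries polyA sequencing while the protocol names ribosomal RNA removal.

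The table's summary rows are not genes and entered no library size: 23.4% to 30.5% of reads had no feature and 37.1% to 43.4% aligned to several places. Genes were filtered with filterByExpr (minimum count 10, minimum total 15), scaled with TMM, and tested over all 13295 kept genes with edgeR 4.0.16 in R 4.3.3 (quasi-likelihood F test, robust, two-sided, no covariate, Benjamini-Hochberg threshold 0.05). The SE is the size of the log2 fold change divided by the square root of F, and 95% intervals use the test's degrees of freedom. CPM values use TMM-scaled totals, log2 CPM a prior count of 2. Levels per kilobase divide CPM by the union of GENCODE M21 exons. The procedure was checked on simulated counts.

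The members and lists were chosen with earlier results of these data known. The genes named are the 10 members, Zfpm2, the pathway list, called genes of the Gq and leukotriene lists (Gnaq, Gna11, Plcb4, Cysltr1 and the neighbours of Ptgfr were added after their values were seen), and the 5 genes most correlated with Ptgfr with a mean CPM of at least 1. Alternatives were RLE scaling, library totals, DESeq2 1.42.0, no filter, limma-voom (limma 3.58.1), keeping genes that reached 1 CPM in 3 libraries, the replicate number as a block, each library left out and, added after seeing the data, libraries with Xist only.

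One result is not reported here.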

Additional observations from a re-analysis of the deposited data

Results flagged for a closer look

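In FOG2 overexpression libraries, 32 sets of 4 values were examined for a single library far from the rest, and 3 were found, where chance gives about 1 in 20. Ptger4, with 23.1 CPM in replicate 1 and 9.82 to 11.98 CPM in the other 3, had a gap of 0.837 of the group's range. Ptgs2, with 53.8 CPM in replicate 1 and 20.4 to 24.7 CPM in the other 3, had a gap of 0.870. The share of Ptgs2 in the summed cyclooxygenase level, 31.4% in replicate 1 and 15.3% to 17.5% in the other 3, had a gap of 0.860. All 3 were above Dixon's critical value for 4 values. The level and the share of Ptgs2 rest on the same counts, and all sets share the same libraries, so the 3 are not independent. In all 3 the library apart was FOG2 overexpression replicate 1, the only one of its group with Y-linked transcripts. It also had the highest marker sums for mesothelium, smooth muscle, vascular endothelium and mast cells. WT replicate 2, which carried Y-linked transcripts too, had 6.78 CPM of Ptger4 and 11.7 CPM of Ptgs2. The other WT libraries had 7.27 and 10.1 CPM of Ptger4 and 21.2 and 8.62 CPM of Ptgs2. The part of these cells or of the Y-linked difference in the values of replicate 1 was not tested.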

How the results depend on the processing

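Over 15 alternatives each, the log2 fold changes of Zfpm2 and 13 other genes never changed sign: of 210 values, 190 stayed on the same side of the threshold, 14 lost the call and 6 gained it. Ptgfr ranged from -4.15 to -3.92 and Zfpm2 from 2.71 to 2.99. With DESeq2, 1141 of all genes and 2 members were called, the second being Ptgs2. Replicate numbers did not pair the libraries (correlations of deviations 0.0789, 0.0136 and 0.0720), and with the number as a replicate block 382 of all genes, 2 members and 1 pathway gene were called, Ptgs2 with an adjusted p = 0.00829, while Ptgr2 and Prkcd lost their calls there (0.0616 and 0.126). Leaving out 1 library gave 256 to 1151 calls over all genes and 0 to 2 pathway genes. In libraries with Xist only, 1 pathway gene was called. Scaling by library totals alone, 738 genes were called, 444 of them higher and 294 lower, where TMM scaling gave 206 higher and 438 lower. That scaling moved the median of all genes to 0.15, from 0.02 on the log2 scale, and no member's call changed. Adjusted p-values ranged from 0.130 to 0.540 for Ptger4, 0.245 to 0.939 for Ptgis, 3.76e-05 to 0.0969 for Pla2g5, 1.62e-08 to 0.0616 for Ptgr2, 0.00998 to 0.204 for Prkcd and 5.29e-04 to 0.182 for Cysltr1. Depth limits Ptger1, Ptger2 and Ptger3, which had 0 to 8 counts per library.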
